A study of Rattus norvegicus with 12 samples.

Results

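The genes described here encode collagens, laminins, fibronectin and the receptors that hold cells to them, and their RNA was measured in ganglionic eminences from embryonic rats. They were chosen by gene symbol from the probe sets that the platform annotation gives exactly 1 symbol. The rule took collagen chains, laminin chains, symbols that start with Itga or Itgb, and Fn1, Antxr1, Antxr2 and Dag1, with the brightest probe set standing for each gene. It found 58 of the 14506 genes on the array. These were 25 collagens, 7 laminin chains, 12 integrin alpha subunits, 8 integrin beta subunits, Fn1, Antxr1 and 4 genes that matched by name only (Itgb1bp1, Itgb1bp2, Itgb3bp and Itgbl1). Antxr2, Dag1, Col4a2, Col6a1, Col6a2 and Lamb1 were not analysed here, nor was 1 probe set annotated to both Aif1l and Lamc3.

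The study compared 6 BACHD+/+ embryos with 6 wild-type embryos. Per the labels, the BACHD+/+ embryos were homozygous for a transgene of full-length human huntingtin that holds 96 CAG repeats. The wild-type embryos lacked it, and all 12 were at embryonic day 14. BACHD rats carry the human gene on a bacterial artificial chromosome, as a model of Huntington disease. Whole ganglionic eminences, medial and lateral together and stripped of meninges, were taken per embryo and hybridised to Affymetrix Rat Gene 1.0 ST arrays. Dissections took place on 1 day, from 3 dams per the design text, and neither dam nor sex was used here.

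The ganglionic eminences are the swellings of the ventral forebrain that give rise to striatal neurons and to many interneurons of the cortex. In the embryonic brain, laminins and type IV collagen form the sheets of basement membrane that surround blood vessels and line the pial surface. Radial glia anchor their endfeet to these sheets through integrins, which are pairs of 1 alpha and 1 beta subunit, and through dystroglycan. Fibrillar collagens are made mainly by mesenchymal cells of the meninges and vessel walls, and neural cells make little of them.

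All values are log2 intensities, and differences are homozygous minus wild type on that scale. A level of 1 probe set cannot be set against that of another, so levels are compared only within a gene. Array medians lay between 7.69 and 7.76 in homozygous and between 7.67 and 7.71 in wild-type embryos. The arrays of wild type 1 and wild type 2 stood apart. Both lay beyond all other 10 arrays, on the same side, for 14 of the 58 matrix and receptor genes (24.1%), against 20.3% of the 29214 probe sets. They lay below the others for 13 of these 14 genes, against 3091 of the 5944 such probe sets on the array. Antxr1, the counts, the median difference of each collagen, laminin and integrin role and the median correlations of the collagens are therefore given with and without these 2 embryos. So are some single genes. Htt, the rat huntingtin gene, had a log2 intensity of 10.26 ± 0.0967 in homozygous and 9.97 ± 0.114 in wild-type embryos (SD, n = 6 each), a 1.23-fold difference (95% interval 1.13 to 1.33, adjusted p = 0.0408 in limma). With 1 embryo left out, Htt passed in 1 of 12 fits (adjusted p from 0.0338 to 0.0864). Whether its probes bind the human transcript was not tested. Of the 9 subpallial marker genes, the genes that define this tissue, 0 were dim, and their mean was 11.15 in both groups.

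Antxr1 was the only one of the 58 genes that passed the test across all probe sets. It encodes anthrax toxin receptor 1, a membrane protein that binds collagen. Its lowest, median and highest log2 intensities were 9.94, 9.97 and 10.01 in homozygous embryos, against 9.31, 9.71 and 9.75 in wild-type embryos. Every homozygous embryo lay above every wild-type embryo. Antxr1 was higher by 0.37 ± 0.0749 (log2, SE, n = 6 each), a 1.30-fold difference (95% interval 1.16 to 1.45), with an adjusted p of 0.0473 in limma.

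The wild-type values of Antxr1 fell into separate levels. Wild type 1 and 2 had 9.35 and 9.31, and wild type 3 to 6 lay between 9.71 and 9.75. The homozygous embryos began 0.189 above the highest wild-type value, while the gap within the wild type was 0.360. Without wild type 1 and 2 the difference was 0.24 ± 0.0257 (1.18-fold) and the adjusted p was 0.00196 in limma, with 1.99% of all probe sets called in that fit. The call rested close to the threshold in the full set. With 1 embryo left out at a time, the adjusted p ran from 0.0385 to 0.112, and of the 12 fits only the one lacking wild type 3 stayed under 0.05. With each array shifted to zero median within 20 classes of brightness, a setting chosen after seeing the data, the adjusted p was 0.0620.

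In limma, 1 of the 58 genes had an adjusted p under 0.05, against 124 of all 29214 probe sets (0.424%). At an unadjusted p under 0.05 there were 7 of the 58 genes (12.1%), against 15.0% of all probe sets. Of these, 5 were higher in homozygous embryos, against 10.2% of all probe sets, and 2 were lower, against 4.81%. The groups did not overlap for 1 of the 58 genes, Antxr1, and for 1.86% of all probe sets. The shares at an unadjusted p and without overlap are near those of the array as a whole.

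**Figure D1:**
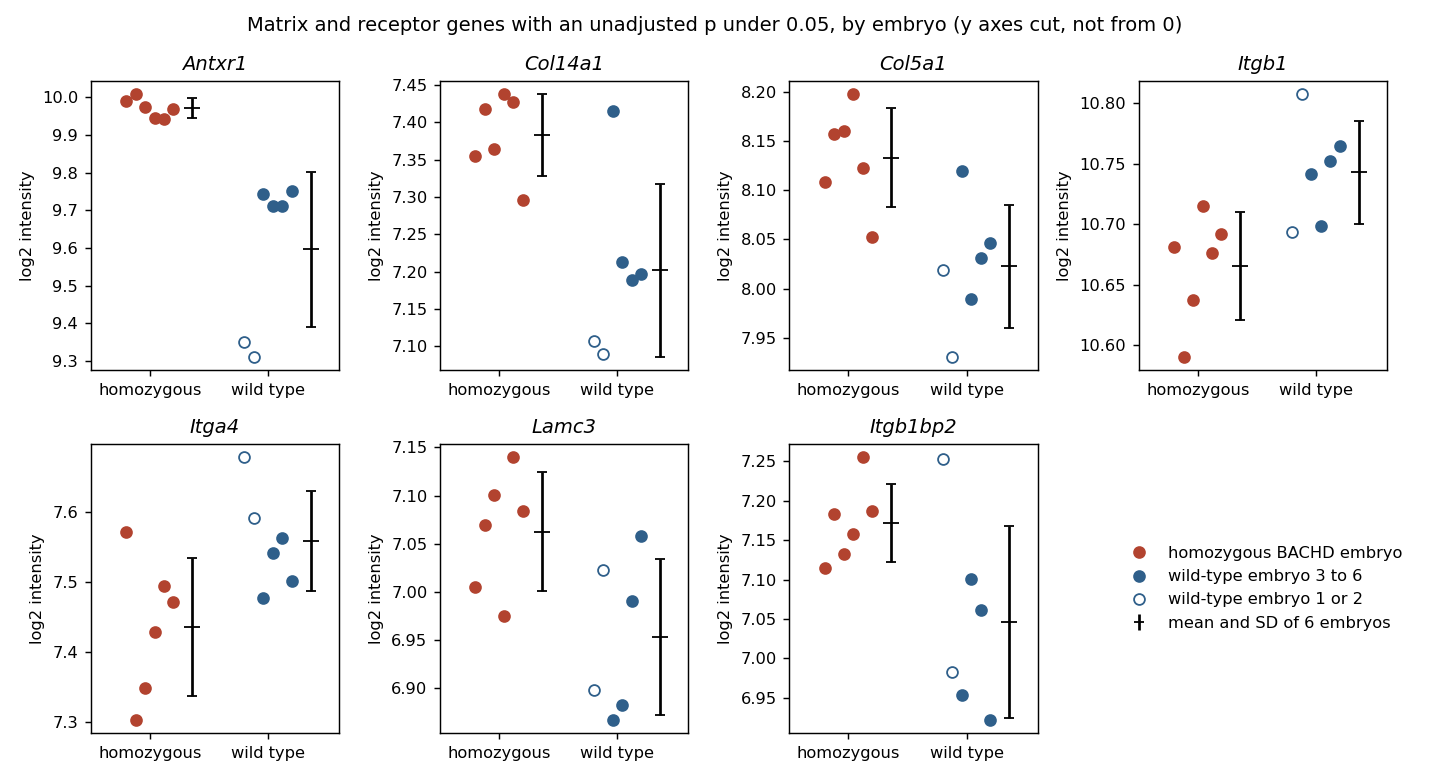
Log2 intensity (y axis, cut) of the 7 matrix and receptor genes with an unadjusted p under 0.05, in 6 homozygous BACHD and 6 wild-type embryos. Points are embryos, open points are wild type 1 and 2, and bars give the mean and SD. The groups are apart for Antxr1 and overlap for the other 6 genes.

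The signs of the differences leaned one way, as did those of the array as a whole. Of the 58 genes, 51 had a higher mean in homozygous embryos (87.9%), with a median difference of 0.07. Over all probe sets the share was 64.8% and the median 0.03, and with 1 probe set per gene the share was 61.4% and the median 0.02. The lean of all probe sets varied with brightness, with a median of 0.06 for means of 6 to 7, 0.0040 for means of 9 to 10 and 0.0045 for means above 10. Of the 39 matrix and receptor genes with a mean of 7 to 9, 37 were above 0 (median 0.08), against 67.7% of all probe sets in that range (median 0.04). With arrays centred on their medians, 44 of the 58 genes lay above 0 (median 0.04), against 45.6% of all probe sets. With brightness classes centred, 42 of 58 lay above 0 (median 0.03), against 51.1% of all probe sets. Without wild type 1 and 2, 46 of 58 lay above 0 (median 0.04), against 62.5% of all probe sets.

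**Figure D2:**
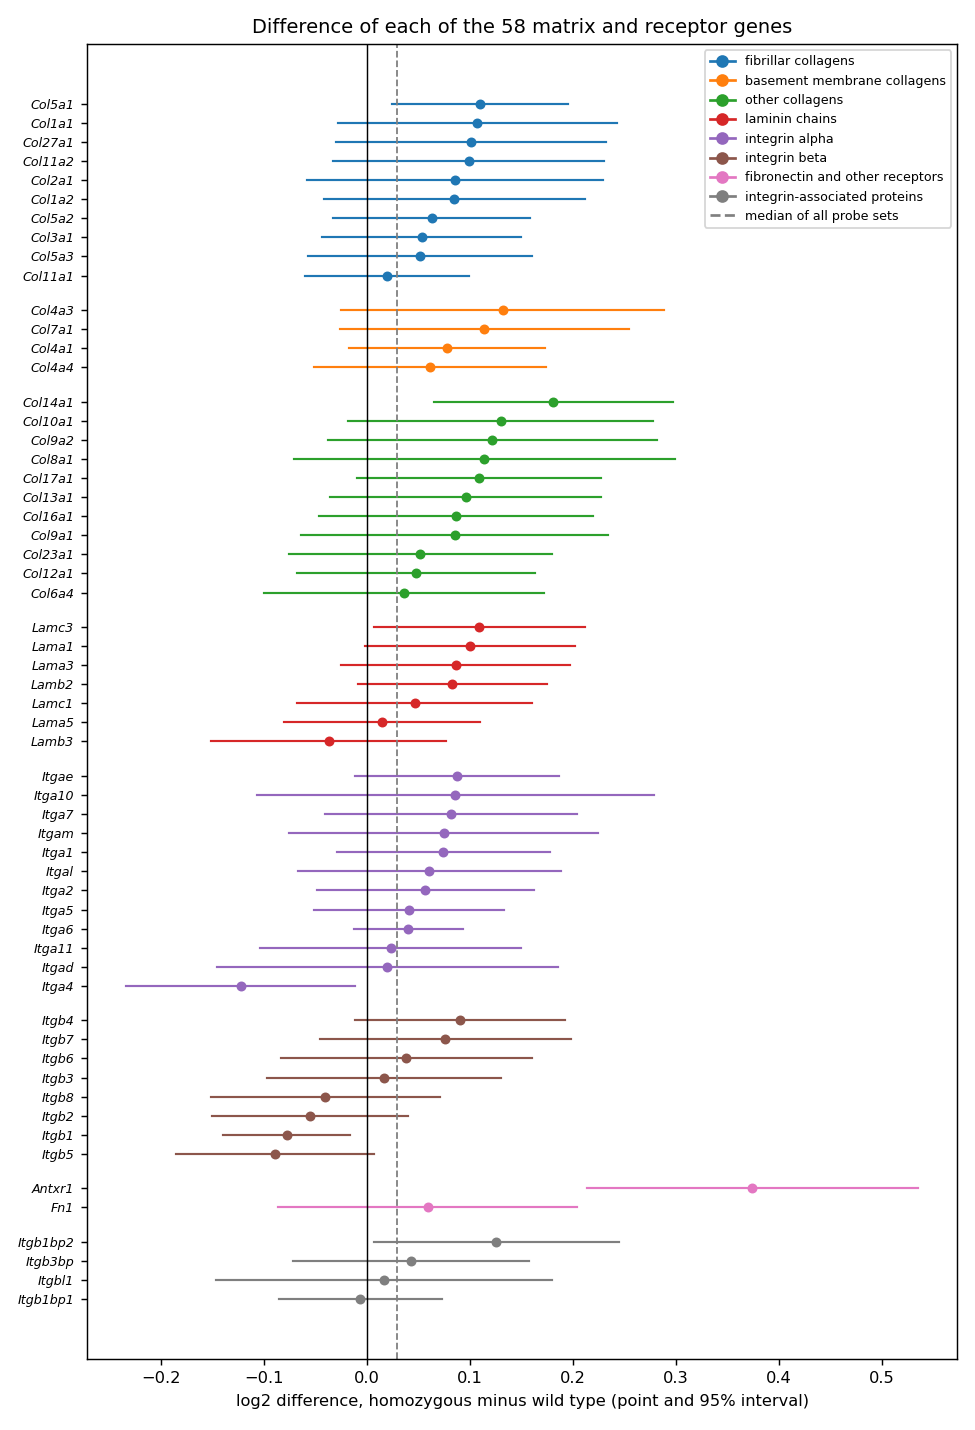
Log2 difference, homozygous minus wild type, of each of the 58 genes (x axis), grouped by role (y axis). Points are estimates, lines are 95% intervals from limma, and the dashed line is the median of all probe sets, 0.03. All 25 collagens lie right of 0 (22 of them with brightness classes centred), and Antxr1 lies apart from the rest at 0.37.

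The fibrillar collagens are the rope-forming chains. All 10 of them had a higher mean in homozygous embryos and none passed the test. Their median difference was 0.09 over all embryos, 0.04 without wild type 1 and 2 (10 of 10 above 0), and 0.03 (9 of 10) with a covariate for each array's gap between dim and bright probe sets. Col5a1, a chain of type V collagen that starts fibril assembly, had 8.05, 8.14 and 8.20 as its lowest, median and highest value in homozygous embryos, against 7.93, 8.03 and 8.12 in wild-type embryos. The groups overlapped because wild type 3 lay above homozygous 1 and 6, and the difference of 0.11 ± 0.0398 (SE) had an adjusted p of 0.227 in limma. Col1a1, a chain of type I collagen, had 8.18, 8.40 and 8.46 in homozygous and 8.07, 8.30 and 8.37 in wild-type embryos. Its partner chain Col1a2 had 8.12, 8.27 and 8.37 in homozygous and 8.01, 8.20 and 8.32 in wild-type embryos. The groups overlapped for both chains, with differences of 0.11 ± 0.0631 for Col1a1 and 0.08 ± 0.0592 for Col1a2. These were 0.05 ± 0.0614 and 0.02 ± 0.0552 without wild type 1 and 2. Col27a1, a fibrillar collagen of cartilage, differed by 0.10 ± 0.0611. Col3a1, of elastic tissues and vessel walls, differed by 0.05 ± 0.0452. Col5a2, the partner of Col5a1, differed by 0.06 ± 0.0446, and its homozygous embryo 4 stood high at 8.40. Without that embryo the difference was 0.03 ± 0.0361.

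The 4 basement membrane collagens were also all above 0, with 0 calls. Their median was 0.10 over all embryos, 0.04 without wild type 1 and 2, and 0.04 with the covariate for dim and bright probe sets. Col4a1, the main chain of type IV collagen in vessels, had 8.40, 8.44 and 8.50 in homozygous embryos, against 8.27, 8.37 and 8.51 in wild-type embryos. Wild type 3 was the highest of all 12 embryos, so the groups overlapped (difference 0.08 ± 0.0443, adjusted p = 0.417 in limma, and 0.03 ± 0.0405 without wild type 1 and 2). Col7a1, which forms anchoring fibrils in skin, differed by 0.11 ± 0.0655. Col4a3 and Col4a4, chains of the type IV collagen of kidney and eye, were read by separate probe sets with no identical values. Col4a3 had 7.22, 7.43 and 7.52 in homozygous and 7.06, 7.27 and 7.47 in wild-type embryos. Col4a4 had 7.06, 7.19 and 7.28 in homozygous and 7.03, 7.12 and 7.23 in wild-type embryos. The groups overlapped for both genes, at 0.13 ± 0.0732 for Col4a3 (0.04 ± 0.0654 without wild type 1 and 2) and 0.06 ± 0.0526 for Col4a4.

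Col4a3 and Col4a4 followed each other from embryo to embryo. After each genotype was centred on its mean, their Pearson r was 0.932 over 12 embryos, 0.912 without wild type 1 and 2, 0.960 within homozygous and 0.929 within wild-type embryos. With brightness classes centred it was 0.869. The pair was chosen after its value was seen, so no p is given, and both values of an embryo come from 1 array. The genes lie head to head on chromosome 9 of the RefSeq assembly GRCr8, with start sites 413 bases apart. Their start regions are shown because the windows that RefSeq coordinates give, from 250 bases before to 50 after each start, overlap. The shared 88 bases, chr9:91323740-91323827, are in capitals and read as reverse complements of each other in the 2 lines.
Col4a3 (chr9:91323740-91324039, plus strand): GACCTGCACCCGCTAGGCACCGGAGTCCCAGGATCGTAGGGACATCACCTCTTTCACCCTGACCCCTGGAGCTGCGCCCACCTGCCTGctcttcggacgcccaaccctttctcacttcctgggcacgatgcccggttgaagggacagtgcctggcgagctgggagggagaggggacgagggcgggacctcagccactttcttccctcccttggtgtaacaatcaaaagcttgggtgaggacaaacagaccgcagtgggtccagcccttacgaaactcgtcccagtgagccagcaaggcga
Col4a4 (chr9:91323528-91323827, minus strand): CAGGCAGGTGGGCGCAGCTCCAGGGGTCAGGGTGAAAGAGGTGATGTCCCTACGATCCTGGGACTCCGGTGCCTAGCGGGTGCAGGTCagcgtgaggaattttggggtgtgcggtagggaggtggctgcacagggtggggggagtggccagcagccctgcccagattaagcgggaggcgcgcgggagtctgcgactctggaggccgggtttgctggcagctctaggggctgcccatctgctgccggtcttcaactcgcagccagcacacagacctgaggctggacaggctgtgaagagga
The GC content is 62% in the Col4a3 window and 65.3% in the Col4a4 window. The GC box letters GGGCGG occur 1 time in the Col4a3 window, outside the shared bases, and 0 times in the Col4a4 window, on either strand. Neither window holds TATAAA or CCAAT on either strand. Among the 43 matrix and receptor genes with such a window, 22 hold GGGCGG (51.2%), 5 TATAAA (11.6%) and 12 CCAAT (27.9%). Among all 27457 RefSeq promoter windows of this length, 34.9% hold GGGCGG, 14.3% TATAAA and 37.7% CCAAT. Col6a4, on chromosome 8, followed both genes as closely as they followed each other, with an r of 0.936 with Col4a3 and 0.929 with Col4a4. The r of other neighbouring pairs was 0.406 for Col3a1 and Col5a2 and 0.226 for Itga1 and Itga2. Differences between pairs were not tested.

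The other 11 collagens include fibril-associated, network-forming and membrane-spanning chains. All 11 were above 0, with a median of 0.10, and none passed. The median was 0.08, with 10 of 11 above 0, without wild type 1 and 2. Col14a1, which sits on the surface of fibrils, had 7.30, 7.39 and 7.44 in homozygous embryos, against 7.09, 7.19 and 7.41 in wild-type embryos. Wild type 3, at 7.41, lay among the homozygous embryos, and the other 5 wild-type embryos lay below all of them. Its difference of 0.18 ± 0.0542 had an adjusted p of 0.152 in limma, and passed only when wild type 3 was left out (adjusted p = 0.0419). Col10a1, of hypertrophic cartilage, differed by 0.13 ± 0.0691, Col17a1, a membrane-spanning collagen of hemidesmosomes, by 0.11 ± 0.0553, Col9a2, of cartilage fibrils, by 0.12 ± 0.0746, and Col8a1, a network collagen, by 0.11 ± 0.0864. Col6a4, a chain of microfibrillar type VI collagen, was read by 3 probe sets at 0.04, 0.10 and 0.06, none past the threshold. Over all 25 collagens the differences ran from 0.02 to 0.18. With arrays centred on their medians 23 of 25 lay above 0, with brightness classes centred 22 of 25, and without wild type 1 and 2, 24 of 25. The collagens' median difference was 0.09 over all embryos and 0.04 without wild type 1 and 2.

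The markers of cells that make fibrillar collagen were read beside these values. Of 15 meningeal and mesenchymal marker genes, 6 were dim, among them the defining markers Lum, Dcn, Ogn and Aldh1a2. Dim here means a mean under 6.72, the 95th percentile of 59 olfactory receptor probe sets, and 9 of the 58 matrix and receptor genes were dim (15.5%), against 25.8% of all genes. The mean level of the meningeal list ran from 7.22 to 7.32 in homozygous and from 7.17 to 7.23 in wild-type embryos, with 12 of 15 genes above 0, a median of 0.06 and 0 calls. The part of these cells in the collagen differences was not tested. In RNA from whole tissue, more cells of a type and more RNA per cell cannot be told apart. Endothelial markers, of which 0 of 17 were dim, ran from 8.42 to 8.48 in homozygous and from 8.38 to 8.56 in wild-type embryos (median difference -0.0016). Mural markers, of which 11 were measured, ran from 8.38 to 8.48 in homozygous and from 8.35 to 8.55 in wild-type embryos (median -0.0065).

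Laminins are crosses of 1 alpha, 1 beta and 1 gamma chain. Of the 7 chains, 6 had a higher mean in homozygous embryos, with a median difference of 0.08 and 0 calls, and with brightness classes centred 5 of 7 did. Leaving out wild type 1 and 2 gave a median of 0.05, with 6 of 7 above 0. Lamc3, a gamma chain, had 6.98, 7.08 and 7.14 in homozygous embryos, against 6.87, 6.94 and 7.06 in wild-type embryos. The groups overlapped, since wild type 2 and 6 lay above homozygous 1 and 4 (difference 0.11 ± 0.0478, adjusted p = 0.303 in limma). Lama1, the alpha chain of the earliest embryonic basement membranes, had 8.33, 8.45 and 8.53 in homozygous and 8.23, 8.35 and 8.44 in wild-type embryos, overlapping at 0.10 ± 0.0477 (adjusted p = 0.341 in limma). Lamb2, a beta chain of mature vessels and synapses, had 8.80, 8.93 and 9.001 in homozygous and 8.72, 8.87 and 8.89 in wild-type embryos, overlapping at 0.08 ± 0.0429. These 2 differences were 0.05 ± 0.0466 and 0.04 ± 0.0402 without wild type 1 and 2. Lamb3, of skin laminin, was the 1 chain below 0, at -0.04 ± 0.0534. Lamc1, the gamma chain of most laminins, was at 0.05 ± 0.0532.

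The integrin subunits were mixed. Of the 12 alpha subunits 11 lay above 0 (median 0.06), and of the 8 beta subunits 4 did (median -0.01), with 0 calls in either set. With brightness classes centred, 9 of 12 alpha and 2 of 8 beta subunits lay above 0. Without wild type 1 and 2, 8 of 12 alpha (median 0.03) and 4 of 8 beta subunits (median -0.02) did. Itgb1, the beta subunit that most matrix-binding integrins share, had 10.59, 10.68 and 10.71 in homozygous embryos, against 10.69, 10.75 and 10.81 in wild-type embryos. Homozygous 4 lay above wild type 1 and 4, so the groups overlapped. The difference was -0.08 ± 0.0290, with an adjusted p of 0.237 in limma and of 0.0956 to 0.331 over the settings other than leaving out 1 embryo. Itga4, which pairs with Itgb1 to bind fibronectin and a vessel adhesion molecule, had 7.30, 7.45 and 7.57 in homozygous and 7.48, 7.55 and 7.68 in wild-type embryos. Homozygous 1 and 5 lay among the wild-type embryos, and the difference was -0.12 ± 0.0518 (adjusted p = 0.293 in limma). Wild type 1 and 2 were the highest of all embryos for this gene, the 1 gene of the 14 where they stood above the others.

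None of the other integrins passed the test. Itgb5, a subunit of vitronectin receptors, was at -0.09 ± 0.0449, and Itgb4, which pairs with Itga6 in hemidesmosomes, at 0.09 ± 0.0475. Itga6, an alpha subunit of laminin receptors that is high in neural progenitors, had 9.81, 9.84 and 9.87 in homozygous and 9.78, 9.80 and 9.83 in wild-type embryos. Its within-genotype SD of 0.0211 was the lowest of the 58 genes, and its difference was 0.04 ± 0.0247. Itga5, the fibronectin receptor subunit, was at 0.04 ± 0.0430. Among subunits of white blood cells, Itgae was at 0.09 ± 0.0463 and Itgad at 0.02 ± 0.0774, and both were dim. The sign of Itgad turned with other scalings. Itga10, a collagen-binding subunit of cartilage, had the highest within-genotype SD, 0.172, and was at 0.09 ± 0.0898, or -0.0012 without wild type 1 and 2.

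Fibronectin, the soluble and fibrillar ligand of several integrins, is encoded by Fn1. It had 10.13, 10.24 and 10.31 in homozygous embryos, against 9.98, 10.13 and 10.41 in wild-type embryos. The homozygous values lay inside the wild-type range (difference 0.06 ± 0.0678, adjusted p = 0.691 in limma, and 0.02 ± 0.0693 without wild type 1 and 2). Of the 4 genes that matched by name, Itgb1bp2, a muscle protein that binds the tail of Itgb1, was at 0.13 ± 0.0555 (adjusted p = 0.307 in limma), Itgb3bp, a centromere protein, at 0.04 ± 0.0534, and Itgbl1, a secreted protein with integrin-like repeats, at 0.02 ± 0.0761, a sign that turned with other scalings.

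**Figure D3:**
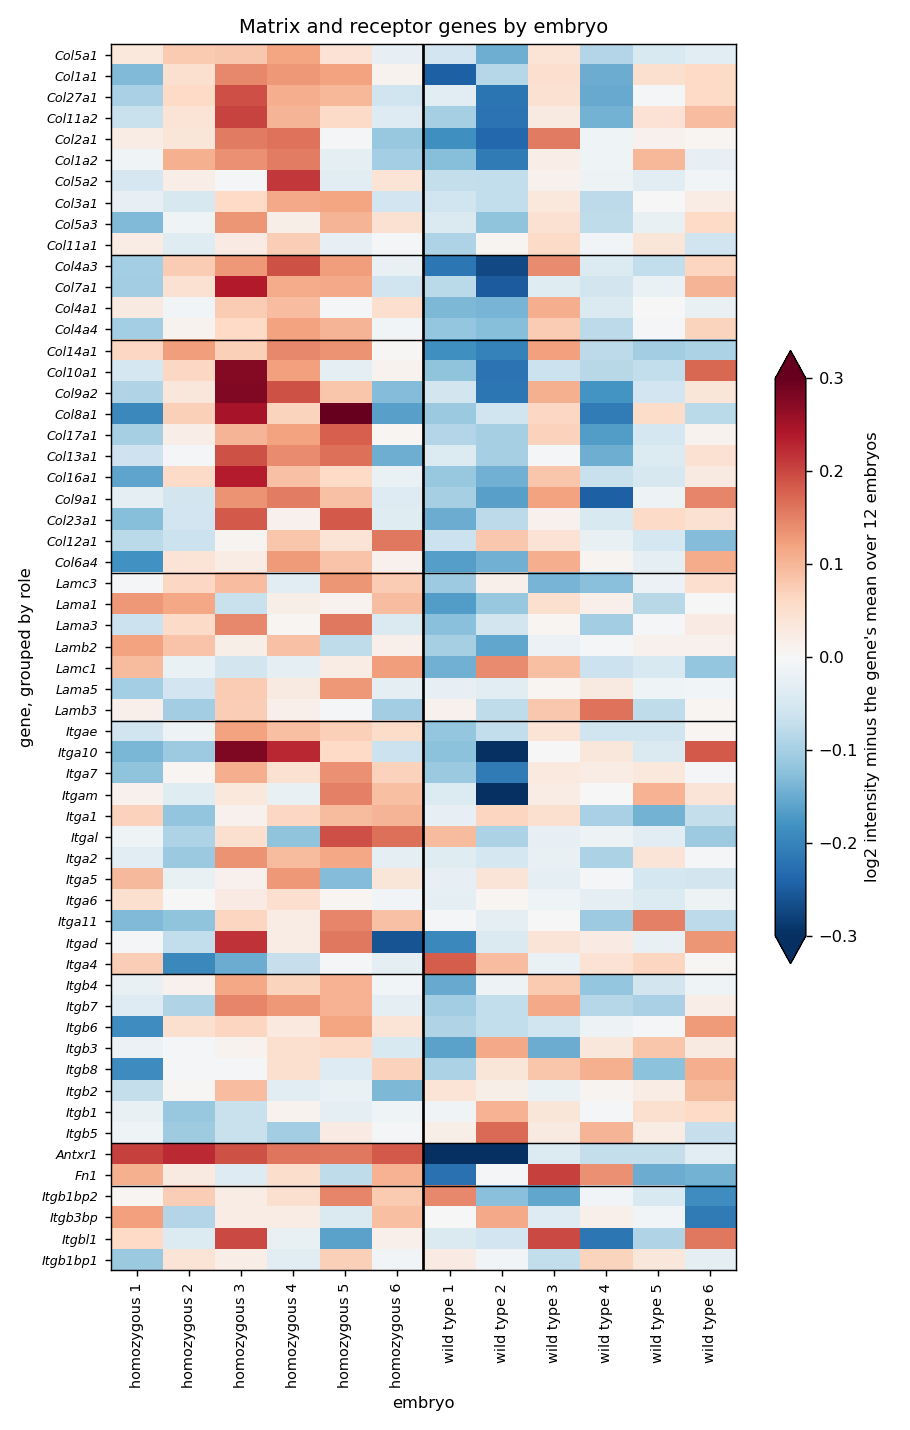
Log2 intensity of each of the 58 genes (rows, grouped by role) in each embryo (columns), minus the gene's mean over 12 embryos, from blue (lower) to red (higher). Most collagen rows share their colours across embryos, with homozygous 3 to 5 high and wild type 1 and 2 low.

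The spread between embryos of the 58 genes was near that of all genes. Their median within-genotype SD was 0.0929, against 0.0885 over all genes, and 2 of them, Col8a1 and Itga10, lay above the 90th percentile of all genes, 0.150. The collagens shared this spread with each other. After each genotype was centred, the median Pearson r over 12 embryos was 0.64 among the 300 collagen pairs, and 38.7% of these pairs exceeded 0.7. Among all 1653 pairs of the 58 genes the median r was 0.26 with 12.6% above 0.7, and among 1000 randomly drawn genes it was 0.02 with 3.31% above 0.7. Within the basement membrane collagens it was 0.77 over 6 pairs, within the fibrillar collagens 0.57 and within the other collagens 0.61. Without wild type 1 and 2 these medians were 0.60, 0.58 and 0.58, and with brightness classes centred 0.62, 0.39 and 0.36. The laminin chains had a median r of -0.19 over 21 pairs, and integrin alpha and beta subunits had 0.19 and 0.29.

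All values of an embryo come from 1 array, and the collagens also followed the arrays. The collagens' median r with the array median, centred in the same way, was 0.67, against 0.50 for all 58 genes and 0.12 for the 1000 drawn genes. With arrays centred on their medians the collagen pairs had a median r of 0.54, and with brightness classes centred 0.44, against 0.0053 and -0.000053 for the drawn genes. Without wild type 1 and 2 it was 0.58. What the arrays and the tissue each contributed was not tested. The closest pairs were Col11a2 and Col27a1 at 0.951 and Col27a1 and Col9a2 at 0.945. Their r was 0.939 and 0.934 with brightness classes centred. Col7a1, of anchoring fibrils in skin, had an r of 0.919 with Col11a2 and 0.917 with Col27a1. The most opposed pairs were Col16a1 and Itga4 at -0.775 and Col10a1 and Itgb5 at -0.753.

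**Figure D4:**
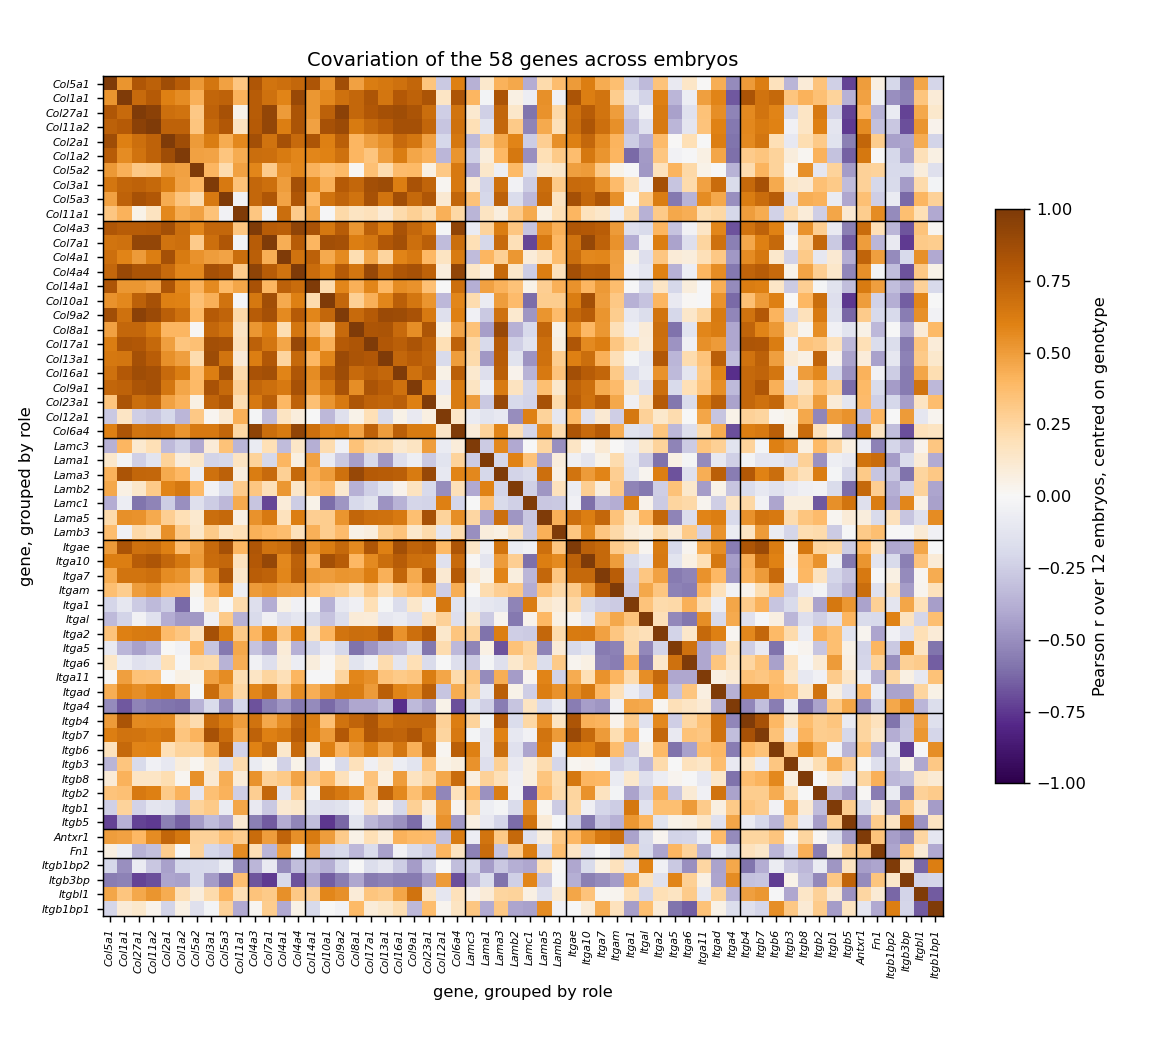
Pearson r over 12 embryos, centred on genotype, for every pair of the 58 genes, with both axes grouped by role and colours from purple (-1) to brown (1). The collagen block at the upper left is mostly brown (median 0.64), the laminin block is mixed (median -0.19), and Itga4 and Itgb5 run against the collagens.

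A set of pairs that share a trimer, a receptor or a cell type was tested by permutation within genotype, adjusted over the 10 pairs that were measured. None passed by Pearson r or by Spearman rho. Col1a1 and Col3a1, collagens of the same fibrils, came closest, with r = 0.727 (adjusted permutation p = 0.0710, n = 12) and rho = 0.629 (adjusted permutation p = 0.0888). Without the 2 embryos farthest from the median of Col1a1 the r was 0.750, and with brightness classes centred it was 0.227. Col1a1 and Col1a2, chains of 1 trimer, had r = 0.559 and rho = 0.559 (adjusted permutation p = 0.161 and 0.186, n = 12). Fn1 and Itga5, ligand and receptor, had r = 0.404 and rho = 0.476 (adjusted permutation p = 0.161 and 0.186), and Itgb1 and Itga6, subunits of 1 receptor, had r = 0.507 and rho = 0.413 (adjusted permutation p = 0.196 and 0.347).

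Pairs of a matrix gene with a cell type marker had r from -0.643 to 0.228, none past the threshold. Col4a1 had r = 0.228 with the endothelial gene Pecam1 (rho = 0.0979, adjusted permutation p = 0.613 and 0.782) and r = -0.584 with the pericyte gene Pdgfrb (rho = -0.538, adjusted permutation p = 0.161 and 0.186). Col1a2 had r = 0.174 with Lum, a fibroblast proteoglycan (rho = 0.294, adjusted permutation p = 0.613 and 0.514). Col3a1 had r = -0.643 with Dcn, another fibroblast proteoglycan (rho = -0.629, adjusted permutation p = 0.161 and 0.186). Lum, Dcn and Ttr were dim. Lama1 had r = -0.322 with the choroid plexus gene Ttr (rho = -0.210, adjusted permutation p = 0.412 and 0.589), and Col3a1 had r = 0.406 with its genomic neighbour Col5a2 (rho = 0.252, adjusted permutation p = 0.412 and 0.589).

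**Figure D5:**
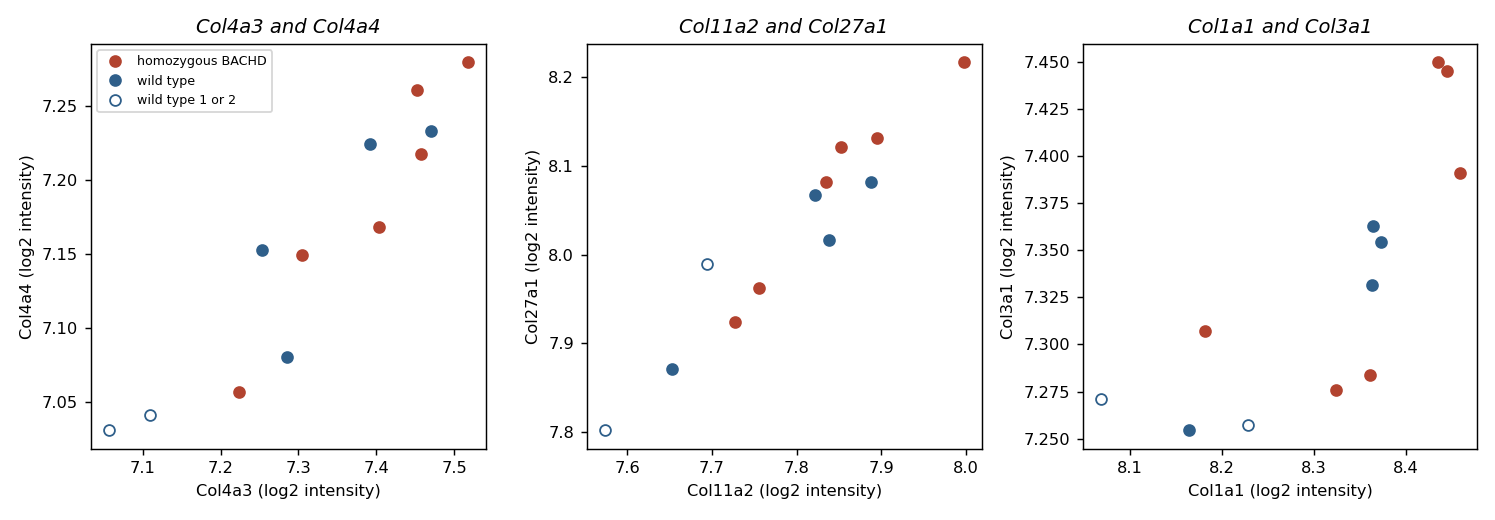
Log2 intensities of Col4a3 and Col4a4, Col11a2 and Col27a1, and Col1a1 and Col3a1 (x and y axes) in 6 homozygous and 6 wild-type embryos, with wild type 1 and 2 as open points. The points of the first 2 pairs lie close to a line (r of 0.932 and 0.951), and those of Col1a1 and Col3a1 scatter more (r of 0.727).

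The genes that fold, bind, cut and anchor this matrix were counted in the same fit. In 7 lists with 104 measured genes, 1 gene passed over all probe sets. Dpm3, a subunit of the dolichol-phosphate mannose synthase that feeds the sugar chains of dystroglycan, was higher by 0.19 ± 0.0325 (adjusted p = 0.0273 in limma), with 10.55 to 10.64 in homozygous and 10.28 to 10.46 in wild-type embryos. The other 12 genes of its list did not pass, with a list median of -0.0040, and Dpm1, the catalytic subunit, was at -0.12 ± 0.0361. None of 23 genes of collagen folding and crosslinking passed (median -0.02), with the proline isomerase gene Ppib at 0.09 ± 0.0329 and the collagen galactosyltransferase gene Colgalt1 at 0.07 ± 0.0292. All 25 collagens lay above 0 (22 with brightness classes centred), against 10 of these 23 folding genes, a difference that was not tested. For the folding genes only the count without that centring is given. In the other lists, 15 of 18 proteases and inhibitors, 8 of 12 brain matrix and 10 of 17 elastic matrix genes lay above 0. So did 8 of 14 integrin adhesion genes, 6 of 13 of the dystroglycan list and 3 of 7 basement membrane partners. The collagens and the folding genes differ in brightness, with means from 6.31 to 8.41 for the collagens and from 6.60 to 12.18 for the folding genes. Over all probe sets, 73.6% lay above 0 at means of 7 to 8, and 52.9% at means above 10. None of 7 basement membrane partners passed (median -0.01), with Smoc2 at 0.16 ± 0.0650. None of 18 proteases and inhibitors passed (median 0.04), with Adamts1, which cuts proteoglycans, at 0.11 ± 0.0415 and the protease inhibitor gene Reck at -0.20 ± 0.0740. The 17 genes of fibronectin and elastic matrix had a median of 0.03, the 12 of brain matrix 0.01 and the 14 of integrin adhesion 0.02, each with 0 calls.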

How the data were processed

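Total RNA from 6 homozygous BACHD and 6 wild-type rat embryos was hybridised to Affymetrix Rat Gene 1.0 ST arrays, 1 array per embryo. Labelling followed the Ambion WT Expression Kit, per the labels' protocols. The deposited table holds log2 intensities, with 1 value for each probe set in each array, and Partek 6.4 and RMA are named per the submitters' processing notes, without settings. Since RMA evens out arrays, a shift common to all genes could be hidden, and short probes compress large differences. For arrays, their number limits precision.

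All 29214 probe sets entered 1 linear model of genotype in limma 3.58.1 (R 4.3.3), by lmFit and eBayes(trend = TRUE). Tests were 2-sided, and p-values were adjusted by Benjamini-Hochberg over the whole table, with 0.05 as the threshold. The annotation gave 1 symbol for 15310 probe sets, several for 323 and none for 13581. All 58 matrix and receptor genes matched the RefSeq table of GRCr8 under the same symbol. Correlations used values centred on genotype, and the fixed pairs 100000 permutations within genotype. Promoter windows came from RefSeq (GRCr8) for 43 of the 58 genes.

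The genes, lists, pairs and tests were chosen with earlier results of these data known. Named were Htt, genes past the threshold, the 3 smallest p of each role, the members of the fixed pairs, Fn1, Antxr1, the 5 largest SDs, at most 2 genes of each matrix list, and the 6 genes most like Col1a2, Col4a1 and Lama1. Col4a4, Lamc1, Lamb3, Col6a4, Col11a2, Col16a1, Itga1 and Itga2 were named after their values were seen. Other settings were median centring, quantile normalization, a replicate block, dropping dim probe sets, no trend, array weights, the mean of a gene's probe sets, each array's gap between dim and bright probe sets as a covariate, leaving out each array, and leaving out wild type 1 and 2. Centring within 20 classes of brightness was chosen after seeing the data. The script was tested on simulated data. Figures used matplotlib 3.10.9 in Python 3.11.15.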

Additional observations from a re-analysis of the deposited data

Results flagged for a closer look

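Col5a2, a chain of type V collagen, had 1 homozygous embryo far from the others. Homozygous 4 had a log2 intensity of 8.40, and the other 5 homozygous embryos lay between 8.14 and 8.23. The gap was 0.651 of the group's whole range, above Dixon's 95% critical value for 6 samples. In all, 64 groups of 6 embryos were checked, and chance flags about 1 in 20 of them.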

How the results depend on the processing

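Antxr1 was higher in homozygous embryos in every setting run, by 0.24 to 0.41. Its call was lost, leaving 0 of the 58 genes past the threshold, with a replicate block (adjusted p = 0.0997), quantile normalization (0.0628), no intensity trend (0.0965), the covariate for dim and bright probe sets (0.0750) and centred brightness classes (0.0620). With 1 embryo left out, 0 to 2 genes passed. The replicate numbers of the labels did not pair the embryos (same-numbered r from -0.0817 to 0.256, and 1 of 6 homozygous embryos closest to its own number). The counts at an unadjusted p under 0.05, 5 higher and 2 lower, became 2 and 4 with median centring and with quantile normalization, 3 and 4 with brightness classes centred, and 3 and 1 without wild type 1 and 2. The lower count was 1 with the covariate, and with 1 embryo left out they ran from 4 to 12 and from 1 to 3. The counts over all 29214 probe sets moved too. From 2974 higher and 1405 lower they became 1187 and 3087 with median centring and 1809 and 2062 with quantile normalization. They were 1870 and 2038 with brightness classes centred, and 2938 and 1553 without wild type 1 and 2. The sign turned for Itga10 with the covariate (-0.0113) and without wild type 1 and 2 (-0.0012). It turned for Itgad with median centring (-0.0176), quantile normalization (-0.0421), the covariate (-0.0408), centred brightness classes (-0.0424), without wild type 1 and 2 (-0.0338) and with 1 embryo left out (range -0.0210 to 0.0739). It turned for Itgbl1 in the same settings, at -0.0208, -0.0432, -0.0044, -0.0443 and -0.0041, with a range of -0.0246 to 0.0584. The cause was not tested. The r of Col4a1 and Pecam1 was -0.188 without the 2 embryos farthest from the median. Without centring on genotype the r was -0.255 for Itgb1 and Itga6 and 0.204 for Lama1 and Ttr, and 1 fixed pair passed. The median r of all pairs was 0.15 with median centring and 0.10 with brightness classes centred.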

Other observations

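Outside the matrix, the genes whose embryo-to-embryo pattern was most like that of Col1a2, after centring on genotype and over 12 embryos, were Pzp (r = 0.955), Tnfrsf9 (0.938), Rhobtb1 (0.913), Hltf (0.902), Cfap52 (0.902) and Trem1 (0.898). Pzp, Tnfrsf9, Cfap52 and Trem1 were dim. Wild type 1 and 2 lay below all other embryos for Col1a2 and Tnfrsf9. The genes most like Col4a1 were Ppic, a proline isomerase (0.9501), Gtf2i (0.933), Rad54l2 (0.929), Snrpd2 (0.923), Usp7 (0.923) and Sugp2 (0.922). For Col4a1 and for all of these genes except Ppic, wild type 1 and 2 lay below all other embryos. For Lama1 the most alike genes were Helz (0.927), Irak4 (0.904), Tec (0.896), Baz2b (0.886), Lpp (0.884) and Fyco1 (0.877). Tec was dim, and for Lama1, Irak4 and Baz2b wild type 1 and 2 lay below all other embryos. Antxr1 was examined after its values were seen. After centring on genotype it was most like Gpatch11 (0.987) and most opposed to Cmtr1 (-0.990). For both of these genes wild type 1 and 2 lay beyond all other embryos. Without centring on genotype, which leaves the group difference in the r, Antxr1 was most like Stmn1, which encodes the microtubule regulator stathmin (0.968). It was then most opposed to Nedd8, which encodes a ubiquitin-like protein (-0.977). Wild type 1 and 2 lay beyond all other embryos for Stmn1 and Nedd8 too. All of these values come from the same 12 arrays, so they are given as descriptions.

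Markers of other cell types were also read in the same fit, with 0 of 102 genes in 9 lists past the threshold. The median difference was -0.02 over 13 microglial genes (2 of them dim) and -0.01 over 7 erythroid genes. It was 0.07 over 14 choroid plexus and roof plate genes, of which 7 were dim, Ttr among them. Of these 14 genes 13 lay above 0, and 3 were higher and 0 lower at an unadjusted p under 0.05. The median difference was 0.0019 over 11 radial glial genes, 0.02 over 9 subpallial genes and -0.25 over 5 pallial genes. The near-0 radial glial median covered 4 of 11 genes lower and 1 higher at an unadjusted p under 0.05. Of the 5 pallial genes, 3 were lower and 0 higher at that cut. Over all probe sets 4.81% were lower and 10.2% higher. The mean of the pallial list ran from 9.35 to 9.49 in homozygous embryos, against 9.59 to 9.77 in wild type 1 to 4 and 9.35 and 9.37 in wild type 5 and 6.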
